A study of Mus musculus with 8 samples.

Results

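The comparison described here is the genotype difference in the density effect: the gap between low- and high-density neutrophils of mice that lack the histamine H2 receptor (H2R), minus the same gap in wild-type mice. It used 8 of the 8 libraries of the study, in 4 groups of 2. The groups were H2R-deficient low density and H2R-deficient high density, each with libraries numbered 1 and 2, and wild-type low density and wild-type high density, each with libraries numbered 2 and 4. H2R-deficient libraries are called deficient below. All mice were of the inbred strain C57BL/6 and 2 months old, and all neutrophils had been drawn into the peritoneal cavity with casein, a milk protein, so both genotypes carried that inflammatory stimulus. The labels do not say which part of Hrh2 was deleted, in which cells, or how. Nor do they state that the 2 libraries of each group are from different mice, and a p-value here speaks only of the spread among the 8 libraries, part of which may be technical.

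H2R is a histamine receptor that couples to the G protein Gs, which turns on adenylyl cyclase and raises cyclic AMP. Cyclic AMP acts through protein kinase A and the transcription factor CREB, and in neutrophils it is known to restrain activation. Neutrophils differ in buoyant density: mature resting cells are dense and full of granules, while immature cells and activated cells that have released granules are lighter and are recovered together with mononuclear cells. A gene whose density gap depends on H2R has a nonzero interaction, the value given throughout as a log2 difference of gaps. It is positive where the low-minus-high gap is the higher one in deficient cells.

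The libraries held 19862716 to 24199215 counts assigned to genes. Levels are in CPM, counts relative to library sizes scaled by trimmed means (TMM), and the scaling factors were 1.49 and 1.34 in deficient low-density libraries, 0.772 and 0.742 in deficient high-density ones, 1.24 and 1.11 in wild-type low-density and 0.777 and 0.808 in wild-type high-density ones. Hrh2, the targeted gene (ENSMUSG00000034987; GRCm38 chromosome 13 between 54192129 and 54236180, plus strand), had 12.1 and 7.6 CPM in deficient low-density against 35 and 17.5 CPM in deficient high-density libraries, and 22.5 and 32.5 against 118 and 41.3 CPM in the wild-type ones. It was lower in deficient than in wild-type libraries within each density, and the counts cover the whole gene. Its 2 gaps were -1.42 ± 0.55 (SE) in deficient and -1.53 ± 0.54 in wild-type cells, and the interaction of 0.12 ± 0.76 had a 95% interval of -1.67 to 1.91 (edgeR adjusted p = 0.95). The defining neutrophil genes were abundant in every library, with the 10 markers, led by S100a9 and S100a8, summing to 16859 and 25271 CPM in deficient low-density and 65989 and 68668 CPM in deficient high-density libraries, and 29232 and 42256 against 63809 and 60096 CPM in the wild-type ones. Because these are bulk samples, fewer cells of a type and less RNA per cell cannot be told apart.

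Across 14909 genes, the low-density and high-density populations stood further apart in deficient than in wild-type cells. With edgeR's quasi-likelihood test and Benjamini-Hochberg adjustment, 8044 genes (54%) passed an adjusted p of 0.05 between densities in deficient cells, 4478 higher and 3566 lower at low density. In wild-type cells 1888 genes (12.7%) passed, 1269 higher and 619 lower. The typical gap was 0.99 log2 units in deficient and 0.53 in wild-type cells, as the median of absolute values. Of the wild-type genes that passed, 1765 passed in the same direction in deficient cells (93.5% of the wild-type and 21.9% of the deficient genes), and 1471 had the larger gap in deficient cells. Leaving out 1 library moved the wild-type count to 223 for wild-type low-density library 2, 814 for wild-type low-density library 4, 123 for wild-type high-density library 2, 1138 for deficient low-density library 1 and 1117 for deficient low-density library 2.

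The test of the difference itself found no gene at an adjusted p of 0.05 (0 genes, 0%, edgeR), and the lowest adjusted p was 0.0906, shared by 302 genes. At an unadjusted p of 0.05, 3150 genes (21.1%) passed, 1878 with a positive interaction (12.6%) and 1272 with a negative one (8.53%). The negative count was 625 without deficient low-density library 1 and 718 without wild-type low-density library 4. DESeq2 called 990 genes (6.64%), 606 positive (4.06%) and 384 negative (2.58%), of which 989 were among the 3150, and limma-voom called 0. When the number of each library entered as a block, 28 genes passed (0.188%), 12 positive (0.0805%) and 16 negative (0.107%). Without wild-type high-density library 2 the edgeR count was 3, and without any other single library it was 0. Scaling by total counts alone called 635 genes (4.26%), 622 positive (4.17%) and 13 negative (0.0872%), and at an unadjusted p of 0.05 had 3390 genes (22.7%), 3013 positive (20.2%) and 377 negative (2.53%). It moved the median interaction of all genes to 0.38, against 0.04 with TMM factors, and the splits of higher and lower density calls to 7690 and 387 in deficient and 4822 and 124 in wild-type cells. In wild-type cells DESeq2 split its density calls into 1292 higher and 1486 lower. Interactions below are therefore given as larger or smaller than 0 with an unadjusted edgeR p and, for part of the single genes named, its adjusted p. Where the adjusted p is not printed it was 0.0906 or higher, and it differed from gene to gene. Counts of list members are to be read against 12.6% positive and 8.53% negative of all genes. With total counts only these shares are 20.2% and 2.53%.

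The 3150 genes had 4 patterns. In 1621 both gaps were above 0 and the deficient one was larger, and in 901 both were below 0 and the deficient one lay further down. The gaps had opposite signs in 591 genes, with the deficient gap above 0 in 243 and below 0 in 348. In the remaining 37 the deficient gap was the smaller. The genotype difference was larger at high density for 1698 of the genes and larger at low density for 1452.

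**Figure D1:**
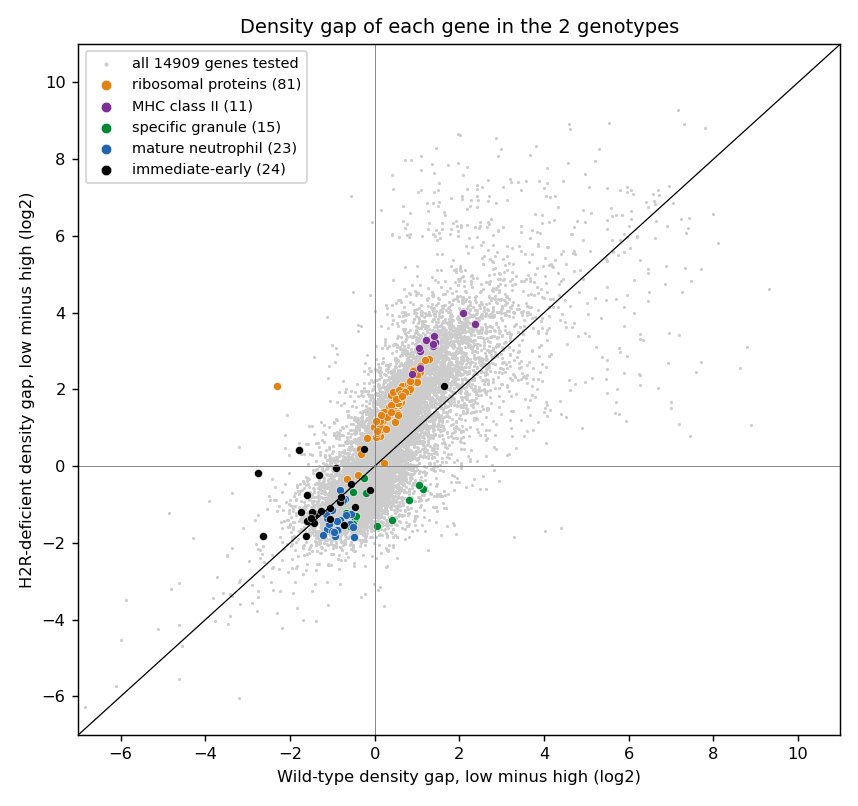
Density gap (low minus high density, log2, from the edgeR fit) of every tested gene, with the deficient gap on the vertical axis and the wild-type gap on the horizontal axis; 5 genes lie outside the axes. Points above the diagonal have a positive interaction: most ribosomal protein and all class II genes lie above it and most mature neutrophil and all specific granule genes below it, while immediate-early genes lie on both sides.

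Genes of protein synthesis had larger gaps in deficient than in wild-type cells. The cytosolic ribosome is built from RNA and the ribosomal proteins of its large and small subunits, and mature neutrophils are known to carry few ribosomes. Of 81 tested ribosomal protein genes, 78 had a positive interaction at an unadjusted p of 0.05 (96.3%, against 12.6% of all genes) and 0 a negative one. The median interaction was 1.18, against 0.04 over all genes, from median gaps of 1.60 in deficient and 0.48 in wild-type cells. Taken library by library, the median gap ran from 1.38 to 1.82 over the 4 pairs of a low- with a high-density library in deficient cells and from 0.24 to 0.68 in wild-type cells, without overlap. The 3 members outside the count were Fau (0.32), Rps9 (0.17) and Rpl6l (-0.13). The list had been trimmed of 5 tested paralogs after values were seen; with them, 79 of 86 were positive and 1 negative. With total counts only 79 of the 81 were positive, against 20.2% of all genes.

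Rpl39, a large-subunit protein (ENSMUSG00000079641; GRCm38 chromosome X between 37082520 and 37085402, minus strand), had 83.7 and 100.1 CPM in deficient low-density against 22.9 and 28.1 CPM in deficient high-density libraries, and 54.5 and 48.2 against 36.1 and 42.4 CPM in the wild-type ones. Both deficient populations lay outside the wild-type range, above it at low density and below it at high density. Its interaction was 1.46 ± 0.27 (SE; edgeR adjusted p = 0.0906). Rpl15 had 94.8 and 101 CPM in deficient low-density against 22.3 and 26 CPM in deficient high-density libraries, and 55.9 and 50.5 against 30.2 and 35.1 CPM in the wild-type ones, with an interaction of 1.31 ± 0.25 (edgeR adjusted p = 0.0906). Rpl29 repeated that order of groups, with 139 and 144 CPM in deficient low-density against 45.8 and 48.8 CPM in deficient high-density libraries, and 93.2 and 83 against 66.5 and 67.8 CPM in the wild-type ones and an interaction of 1.19 ± 0.22. Summed over the 84 ribosomal protein genes in the tables, the level was 15003 and 16531 CPM in deficient low-density and 5273 and 6382 CPM in deficient high-density libraries, and 10314 and 8726 against 7051 and 7735 CPM in the wild-type ones. The sum was highest in the deficient low-density and lowest in the deficient high-density libraries, with the wild-type libraries between.

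Mitochondrial ribosomal proteins, which build the separate ribosome of that organelle, had a median interaction of 0.82, with 32 of 78 positive at an unadjusted p of 0.05 and 0 negative (16 without deficient low-density library 2 and 20 without wild-type low-density library 4). The positive share was 41%, against 12.6% of all genes. Mrps5, a small-subunit member, had 6.65 and 7.21 CPM in deficient low-density against 0.584 and 0.702 CPM in deficient high-density libraries, and 3.77 and 4.93 against 1.77 and 2.36 CPM in the wild-type ones, and its interaction was 2.35 ± 0.44 (edgeR adjusted p = 0.0906). Among 32 translation factors 17 were positive (53.1%, against 12.6% of all genes) and 0 negative, with a median of 0.59. Eif3m and Eif3f, subunits of the initiation factor that loads the small ribosomal subunit onto mRNA, had interactions of 1.65 ± 0.31 and 1.07 ± 0.25. Eef1g, a subunit of elongation factor 1, had 1.06 ± 0.25, from 242 and 252 CPM in deficient low-density against 61.6 and 67.1 CPM in deficient high-density libraries, and 131 and 109.6 against 59.3 and 71.5 CPM in the wild-type ones. At high density the Eef1g levels of the genotypes overlapped, and at low density they did not.

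The 9 B cell markers summed to 720.5 and 921 CPM in deficient low-density and 43.6 and 65.5 CPM in deficient high-density libraries, and 402 and 184 against 50.5 and 58 CPM in the wild-type ones, and each marker was above 0 in every library. At high density the marker sums of the genotypes overlapped. The part of B cells in the interaction of the ribosomal protein genes was not tested.

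**Figure D2:**
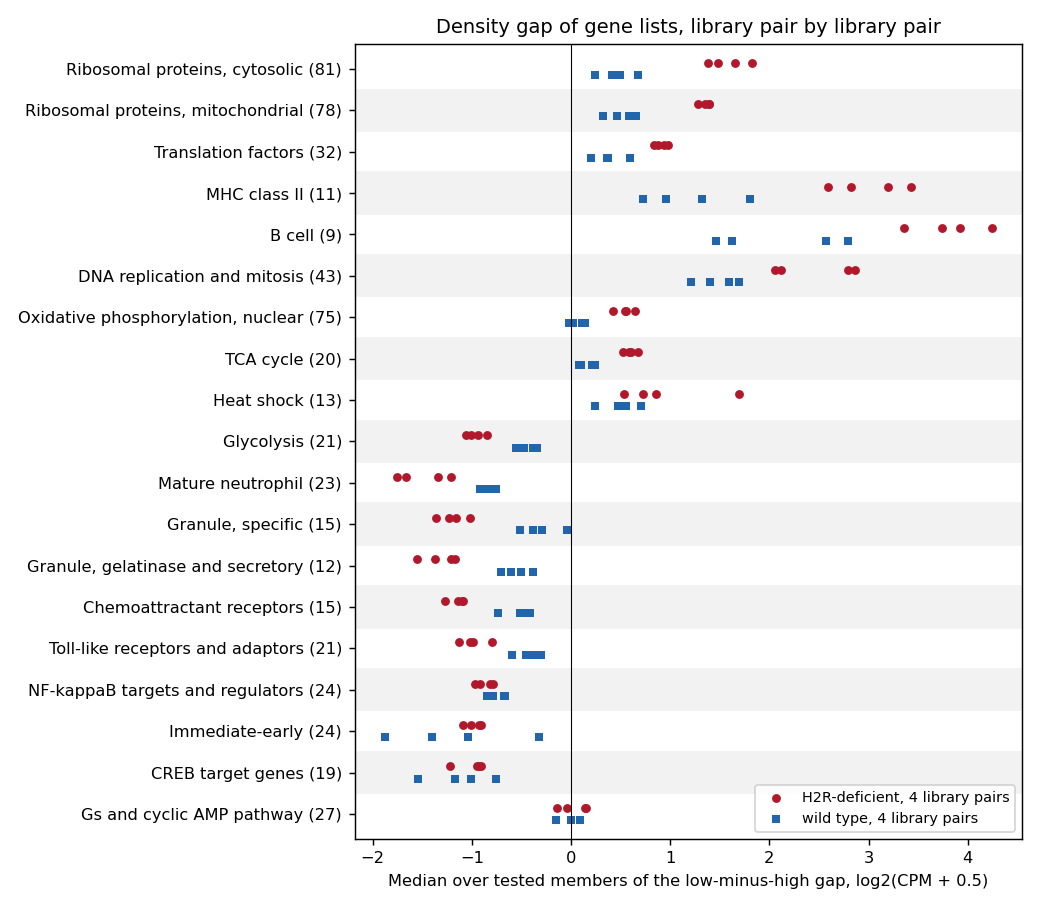
Median low-minus-high gap, in log2(CPM + 0.5), over the tested members (number in brackets) of 19 gene lists; each point is 1 pair of a low-density with a high-density library, 4 pairs per genotype, which share libraries. Deficient and wild-type points do not overlap for ribosomal proteins, class II, replication, TCA cycle, glycolysis, granule and mature neutrophil lists, and overlap for the immediate-early, CREB target and cyclic AMP lists.

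Class II antigen presentation had a median interaction of 1.82, the largest of the 39 function lists summarised. MHC class II molecules load peptides in endosomes and show them to CD4 T cells; B cells, dendritic cells and macrophages carry them. Of 11 tested genes 10 were positive at an unadjusted p of 0.05 (90.9%, against 12.6% of all genes) and 0 negative. The eleventh, H2-Oa, had an interaction of 1.51 (edgeR adjusted p = 0.238). All 11 passed as higher at low density in deficient cells and 9 did so in wild-type cells (edgeR adjusted p under 0.05; 30% and 8.51% of all genes). H2-Eb1, a beta chain (ENSMUSG00000060586; GRCm38 chromosome 17 between 34305877 and 34316199, plus strand), had 285 and 335 CPM in deficient low-density against 30.6 and 46.9 CPM in deficient high-density libraries, and 189 and 120.1 against 72.7 and 75 CPM in the wild-type ones. It was higher than in wild type at low density and lower at high density, though neither difference passed (edgeR adjusted p = 0.115 and 0.132). The interaction was 1.94 ± 0.37 (edgeR adjusted p = 0.0906), and with the library number as a block it was 2.00 and passed (edgeR adjusted p = 0.0438).

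H2-Ab1 and H2-Aa, the chains of the other class II molecule, had interactions of 1.99 ± 0.41 and 1.80 ± 0.43. H2-DMb1, a chain of the molecule that exchanges peptides on class II, had 10.7 and 13.9 CPM in deficient low-density against 1.46 and 1.47 CPM in deficient high-density libraries, and 8.27 and 6.19 against 2.95 and 4.01 CPM in the wild-type ones and an interaction of 2.01 ± 0.39 (edgeR adjusted p = 0.0906). Ifi30, a lysosomal thiol reductase that unfolds antigens for class II loading, was not on the list and was chosen after its values were seen. It had 135 and 157 CPM in deficient low-density against 8.94 and 12.6 CPM in deficient high-density libraries, and 102 and 57.8 against 24.5 and 31.9 CPM in the wild-type ones, with an interaction of 2.26 ± 0.41 that passed with the block (2.32, edgeR adjusted p = 0.0476). The B cell markers given beside these levels had interactions of their own: Ms4a1 (CD20) had 137 and 161 CPM in deficient low-density against 8.23 and 11.5 CPM in deficient high-density libraries, and 65.1 and 31.5 against 9.84 and 10.5 CPM in the wild-type ones, and its interaction was 1.67 ± 0.46 (edgeR adjusted p = 0.101). Cd79a and Cd79b, the signalling chains of the B cell receptor, had 1.82 ± 0.53 and 1.64 ± 0.54. In all 5 of 9 B cell markers were positive at an unadjusted p of 0.05 and 0 negative (2 without deficient high-density library 1 and 3 without deficient low-density library 2 or wild-type high-density library 4). The positive share was 55.6%, against 12.6% of all genes. At high density Cd79a had 6.25 and 8.68 CPM in deficient and 7.84 and 9.8 CPM in wild-type libraries, which overlap. The 7 dendritic cell markers, also known carriers of class II, summed to 476 and 704 CPM in deficient low-density and 9.75 and 15.2 CPM in deficient high-density libraries, and 455 and 209.5 against 8.37 and 31.1 CPM in the wild-type ones. The median genotype difference of the 7 macrophage markers was -0.60 at low and -1.80 at high density, against 1.08 and -0.64 for class II genes. For the 4 monocyte markers it was -0.55 and -1.55. B cell markers had 1.49 and 0.07, and dendritic cell markers 0.59 and -0.69. The part of these cell types in the class II interaction was not tested.

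The promoter stretches of a pair of class II genes are shown because 10 of the 11 members had a positive interaction at an unadjusted p of 0.05. They are the 150 bases before the RefSeq transcription start (GRCm38.p6), H2-Eb1 at chr17:34305717-34305866 (plus strand) and H2-Aa at chr17:34287824-34287973 (minus strand), with capitals marking CCAAT, TGACGTCA and TTNNGNAA on either strand.
H2-Eb1: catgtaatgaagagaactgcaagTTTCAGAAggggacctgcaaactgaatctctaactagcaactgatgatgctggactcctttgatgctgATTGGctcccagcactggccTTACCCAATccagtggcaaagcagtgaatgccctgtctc
H2-Aa: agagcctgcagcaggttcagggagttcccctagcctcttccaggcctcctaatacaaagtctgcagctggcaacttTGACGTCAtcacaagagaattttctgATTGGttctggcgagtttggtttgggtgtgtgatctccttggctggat
CCAAT, present in both stretches in its reverse form ATTGG, is the core of the Y box known from class II promoters, bound by NF-Y. Of the 8 class II genes with a promoter in the table, 7 held CCAAT in this window (87.5%), against 27.4% of 10487 tested genes. TGACGTCA, the full cyclic AMP response element, lies in H2-Aa at position -74 from the start. H2-Aa was the only 1 of the 8 class II genes to hold it (12.5%), against 2.26% of tested genes. These are matches of letters and not evidence of binding.

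Energy metabolism divided into a part with positive and a part with negative interactions. Among 75 nuclear genes of oxidative phosphorylation 24 were positive and 0 negative at an unadjusted p of 0.05, with median gaps of 0.52 in deficient and 0.05 in wild-type cells (12 without deficient low-density library 2 and 15 without wild-type low-density library 2). In the TCA cycle, which feeds electrons to that chain, 8 of 20 were positive and 0 negative. The positive shares of these lists were 32% and 40%, against 12.6% of all genes. The positive counts of these lists were 48 and 13 with total counts only, against 20.2% of all genes. Ndufa9, a subunit of complex I, had 11.7 and 12.2 CPM in deficient low-density against 2.45 and 3.06 CPM in deficient high-density libraries, and 7.74 and 8.26 against 5.36 and 6.02 CPM in the wild-type ones, and its interaction was 1.63 ± 0.31 (edgeR adjusted p = 0.0906). Fh1, fumarate hydratase of the TCA cycle, had 11.6 and 9.51 CPM in deficient low-density against 0.993 and 1.4 CPM in deficient high-density libraries, and 7.29 and 7.32 against 2.47 and 4.19 CPM in the wild-type ones and an interaction of 2.01 ± 0.44. Both genes were lower in deficient than in wild-type libraries at high density and higher at low density. Neither genotype difference passed edgeR at an adjusted p of 0.05. The values were 0.167 at low and 0.0937 at high density for Ndufa9, and 0.306 and 0.0977 for Fh1. Idh3a, an isocitrate dehydrogenase subunit, and Atp5g2, a subunit of ATP synthase, had interactions of 1.59 ± 0.38 and 1.44 ± 0.29.

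Glycolysis, the main energy source of neutrophils, had negative interactions. Of 21 genes 0 were positive and 6 negative at an unadjusted p of 0.05 (28.6%, against 8.53% of all genes), with median gaps of -0.95 in deficient and -0.42 in wild-type cells. The negative count was 2 without deficient low-density library 1 or wild-type low-density library 2 and 3 without wild-type high-density library 4. Pfkp, a phosphofructokinase, had 182 and 231 CPM in deficient low-density against 529.8 and 581 CPM in deficient high-density libraries, and 389 and 255 against 319 and 381 CPM in the wild-type ones. In wild-type cells its densities overlapped, and in deficient cells both high-density libraries stood above every other library. The Pfkp interaction was -1.31 ± 0.33 (edgeR adjusted p = 0.0933), that of the hexokinase Hk3 -0.85 ± 0.23 and that of the glucose transporter Slc2a1 -0.77 ± 0.30. With total counts only these were -0.99, -0.52 and -0.45, while the median of all genes was 0.38. Over the whole list total counts left 1 gene negative and 1 positive, against 2.53% and 20.2% of all genes, with a median of -0.17.

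Genes of the mature neutrophil were lower at low density in both genotypes, and further down in deficient cells. All 23 of 23 passed as lower in deficient cells and 13 in wild-type cells (edgeR; 23.9% and 4.15% of all genes). The median interaction was -0.59, with 0 positive and 8 negative at an unadjusted p of 0.05 (2 without deficient low-density library 1 or deficient high-density library 1, 3 without wild-type low-density library 4, 4 without deficient high-density library 2 and 5 without wild-type high-density library 2). The negative share was 34.8%, against 8.53% of all genes. Cxcr2, the receptor for neutrophil-attracting chemokines, had 586 and 848 CPM in deficient low-density against 2639 and 2541 CPM in deficient high-density libraries, and 1336 and 1770 against 2433 and 1908 CPM in the wild-type ones. At high density the deficient libraries lay just above the wild-type ones, and at low density both lay under both wild-type ones. The Cxcr2 interaction was -1.37 ± 0.34 (edgeR adjusted p = 0.0931), that of Wfdc21 -1.06 ± 0.29 and that of Mxd1, an antagonist of MYC, -0.79 ± 0.29. With total counts only the list median was -0.25 and 2 members were negative at an unadjusted p of 0.05, against 2.53% of all genes.

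Specific granule genes had a wild-type gap that was small or, for some, above 0. In wild-type cells 0 of them passed in either direction (edgeR adjusted p under 0.05). Specific granules hold antimicrobial proteins such as lactoferrin and form in the bone marrow before the cell is mature. Of 15 such genes 7 were negative (46.7%, against 8.53% of all genes) and 0 positive at an unadjusted p of 0.05, with median gaps of -1.22 in deficient and -0.45 in wild-type cells. With total counts only the negative count was 4, against 2.53% of all genes. The median interaction was -0.88, and -1.10 to -0.59 with 1 library left out. Ltf, lactoferrin (ENSMUSG00000032496; GRCm38 chromosome 9 between 111019271 and 111042767, plus strand), had 188 and 335 CPM in deficient low-density against 280.1 and 512 CPM in deficient high-density libraries, and 213 and 247 against 79.9 and 129 CPM in the wild-type ones. In wild-type cells both low-density libraries were above both high-density ones, and in deficient cells the densities overlapped. Its interaction was -1.74 ± 0.52 (edgeR adjusted p = 0.121), and it passed with the block (-1.77, edgeR adjusted p = 0.0438). Ngp, neutrophilic granule protein (ENSMUSG00000032484; GRCm38 chromosome 9 between 110419747 and 110423012, plus strand), had 395 and 759 CPM in deficient low-density against 789 and 1320.4 CPM in deficient high-density libraries, and 412 and 977 against 210.1 and 589 CPM in the wild-type ones. Within each number the low-density library was below the high-density one in deficient cells and above it in wild-type cells, where the ranges of the densities overlapped. Its interaction of -1.67 ± 0.87 had an edgeR adjusted p of 0.316 without the block and 0.0438 with it (-1.75).

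Cd177, a neutrophil surface glycoprotein held in specific granules, had 394 and 568 CPM in deficient low-density against 1198 and 1337 CPM in deficient high-density libraries, and 537 and 950.1 against 450.1 and 675 CPM in the wild-type ones. Its deficient high-density libraries stood above all others, with an interaction of -1.80 ± 0.44 (edgeR adjusted p = 0.0931; with the block -1.79, adjusted p = 0.0438). Ltb4r1, the leukotriene B4 receptor, had 54.7 and 55.4 CPM in deficient low-density against 204 and 118 CPM in deficient high-density libraries, and 72.2 and 84.1 against 85.7 and 64.1 CPM in the wild-type ones, with an interaction of -1.61 ± 0.37 (edgeR adjusted p = 0.0906). Gelatinase and secretory granule genes had a median of -0.61, 7 of 12 negative (58.3%, against 8.53% of all genes) and 0 positive. With total counts only the median was -0.27 and 2 were negative, against 0.38 and 2.53% over all genes. The negative count was also lower without single libraries (1 without wild-type low-density library 4, 2 without deficient high-density library 1, 3 without deficient low-density library 1 or deficient high-density library 2 and 4 without deficient low-density library 2). Among them, Itgam (CD11b), an integrin subunit, had -0.86 ± 0.27, Mmp25, a membrane metalloproteinase, -1.17 ± 0.37 and Adam8, a sheddase, -1.28 ± 0.44. Itgam is also on the specific granule list.

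The promoters of Ltf and Ngp are shown because their estimated wild-type gaps lay above 0 against the run of neutrophil genes. Neither wild-type gap passed (edgeR adjusted p = 0.0737 for Ltf and 0.396 for Ngp). Their deficient gaps, below 0, did not pass either (edgeR adjusted p = 0.194 and 0.259). The stretches are the 150 bases before the start, at chr9:111019142-111019291 (plus strand) and chr9:110419658-110419807 (plus strand). Capitals mark CCAAT and TTNNGNAA, a short form of the site of C/EBP factors, which are known to drive granule genes.
Ltf: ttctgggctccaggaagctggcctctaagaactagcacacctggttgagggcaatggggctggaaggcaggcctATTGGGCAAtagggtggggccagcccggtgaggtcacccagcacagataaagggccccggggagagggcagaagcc
Ngp: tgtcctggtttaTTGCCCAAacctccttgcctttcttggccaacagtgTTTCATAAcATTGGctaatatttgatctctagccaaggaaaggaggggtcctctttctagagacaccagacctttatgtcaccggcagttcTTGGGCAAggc
TTNNGNAA was present in this window in 6 of 14 specific granule genes (42.9%), 11 of 20 mature neutrophil genes (55%) and 17.1% of all tested genes. The H2-Eb1 stretch holds the same letters.

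Sensing followed the neutrophil genes in part, and the lists share members. The chemoattractant receptors Cxcr2, Fpr1 and Fpr2 are also on the mature neutrophil list, and Ltb4r1 is on the specific granule list. Fpr1, Fpr2 and the Toll list member Cd14 are on the gelatinase and secretory list, so the counts of these lists are not independent. Of 15 chemoattractant receptors 7 were negative (46.7%, against 8.53% of all genes) and 2 positive (13.3%, against 12.6%) at an unadjusted p of 0.05. Scaled by total counts only, 2 were negative and 3 positive, against 2.53% and 20.2% of all genes. The positive count ran from 1 to 4 with 1 library left out. The negative count was 2 without deficient low-density library 1, deficient high-density library 1, deficient high-density library 2 or wild-type low-density library 4 and 4 without wild-type high-density library 4. Of 21 Toll-like receptor genes 4 were negative (19%, against 8.53% of all genes) and 0 positive. With total counts only 2 were negative and 1 positive, against 2.53% and 20.2% of all genes. The adaptor Tirap had the lowest p. Tirap had 38.4 and 54.4 CPM in deficient low-density against 125 and 128 CPM in deficient high-density libraries, and 75.9 and 78.6 against 88.8 and 81.5 CPM in the wild-type ones, and its interaction was -1.30 ± 0.27 (edgeR adjusted p = 0.0906). Tlr4, the receptor for lipopolysaccharide, had -1.23 ± 0.39, and Tlr13, a receptor for bacterial RNA, -0.79 ± 0.24.

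**Figure D3:**
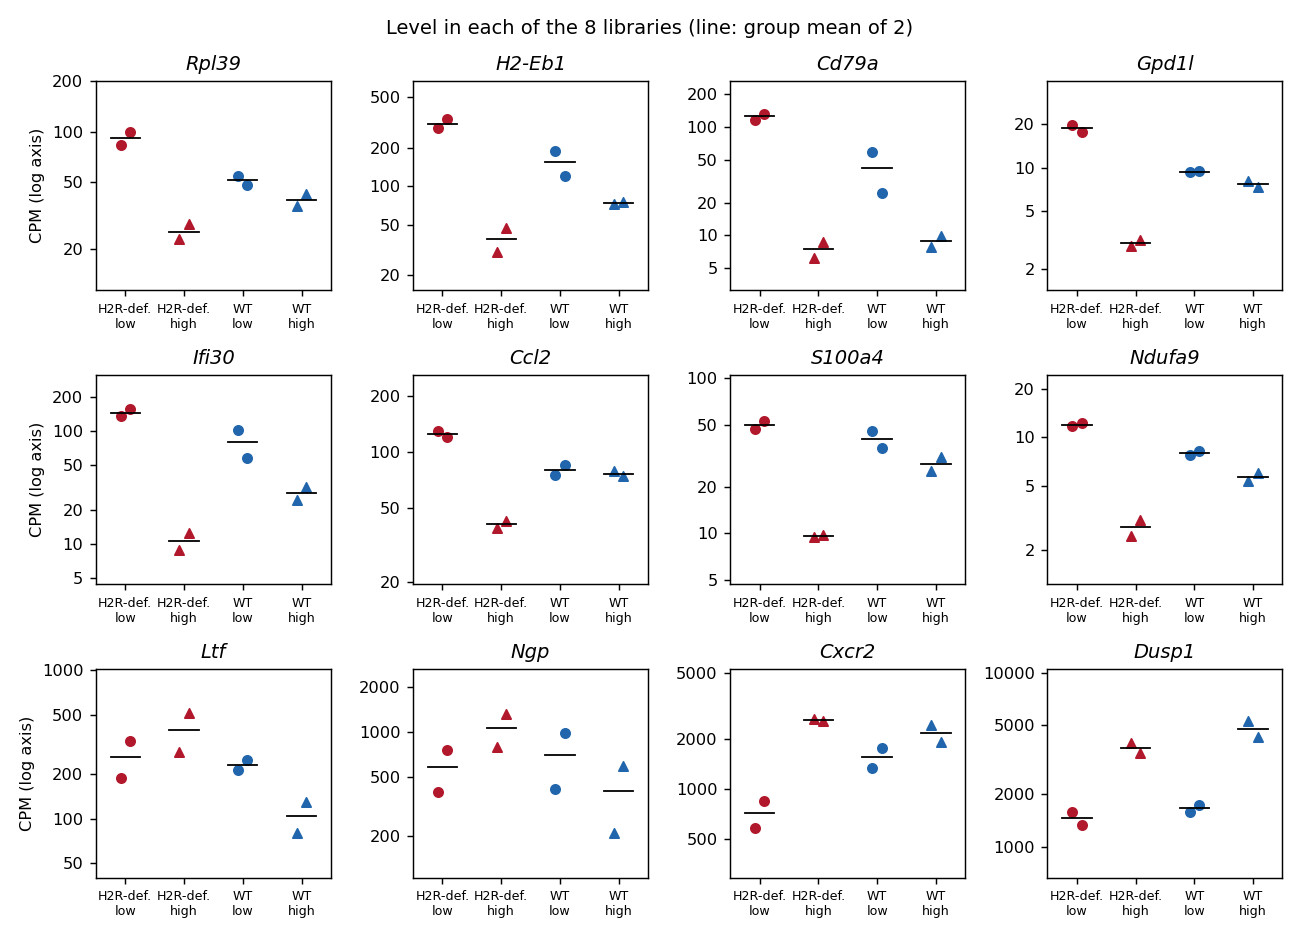
Level of 12 genes in each of the 8 libraries, in CPM on log axes, with circles for low and triangles for high density, deficient libraries in red and wild-type libraries in blue, and a line at the mean of each group of 2. For Gpd1l, Ccl2 and S100a4 the deficient densities stand far apart and the wild-type ones close together, Ltf and Ngp have gaps of opposite sign in the genotypes, and Dusp1 has similar gaps.

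Genes of cell division also had positive interactions. Of 43 replication and mitosis genes 15 were positive and 0 negative (5 without deficient low-density library 1 and 8 without wild-type low-density library 4), with median gaps of 3.32 in deficient and 2.03 in wild-type cells. The positive share was 34.9%, against 12.6% of all genes. Mcm3 and Mcm4, subunits of the replicative helicase, had interactions of 2.49 ± 0.48 and 2.02 ± 0.36, and Rrm1, a subunit of ribonucleotide reductase, 1.90 ± 0.35. Mcm3 had 27.1 and 19.7 CPM in deficient low-density against 0.934 and 1.79 CPM in deficient high-density libraries, and 13.5 and 9.71 against 3.06 and 4.49 CPM in the wild-type ones. Pdia4, a disulfide isomerase of the endoplasmic reticulum, had 149 and 135 CPM in deficient low-density against 14.5 and 15.1 CPM in deficient high-density libraries, and 75.3 and 63.3 against 22.1 and 29.6 CPM in the wild-type ones and an interaction of 1.84 ± 0.28 (edgeR adjusted p = 0.0906). Xbp1, a transcription factor of the unfolded protein response, had the opposite sign, with 241 and 338 CPM in deficient low-density against 776 and 796 CPM in deficient high-density libraries, and 531 and 692 against 534 and 631 CPM in the wild-type ones and an interaction of -1.51 ± 0.31 (edgeR adjusted p = 0.0906). Over the 22 genes of endoplasmic reticulum stress the median was 0.48, with 4 positive (18.2%, against 12.6% of all genes) and 2 negative (9.09%, against 8.53%), shares near those of all genes. Scaled by total counts only, 11 were positive and 1 negative, against 20.2% and 2.53% of all genes. The positive count also moved with single libraries (2 without deficient low-density library 1 and 9 without deficient high-density library 1).

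The lists nearest to the receptor's own pathway had median interactions near 0. Over 27 genes of Gs and cyclic AMP signalling the median gaps were 0.11 in deficient and -0.21 in wild-type cells. The median interaction was 0.07 (-0.07 to 0.20 with 1 library left out). At an unadjusted p of 0.05, 2 were positive (7.41%, against 12.6% of all genes) and 3 negative (11.1%, against 8.53%), shares near those of all genes. The members with the lowest p were Pde3b, a phosphodiesterase that degrades cyclic AMP (1.41 ± 0.41, edgeR adjusted p = 0.11), Adcy4, an adenylyl cyclase (-1.39 ± 0.44, 0.127), and Atf1, a CREB relative (-0.68 ± 0.22, 0.139). Pde3b had 15.5 and 16.1 CPM in deficient low-density against 5.26 and 7.85 CPM in deficient high-density libraries, and 10.4 and 13.5 against 16.6 and 9.8 CPM in the wild-type ones, lower in the deficient high-density libraries than in the other 6. The 19 CREB targets had median gaps of -1.17 in deficient and -1.14 in wild-type cells and a median interaction of 0.17. At an unadjusted p of 0.05, 1 was positive (5.26%, against 12.6% of all genes) and 1 negative (5.26%, against 8.53%). Their lowest p-values were those of Cebpb (-0.83 ± 0.28, edgeR adjusted p = 0.143), Nr4a2 (2.22 ± 0.84, 0.182) and Fosb (2.57 ± 1.39, 0.341). Nr4a2 and Fosb were highest in wild-type high-density library 2. Dusp1, a phosphatase of MAP kinases and a CREB target, had 1584 and 1329 CPM in deficient low-density against 3934 and 3451 CPM in deficient high-density libraries, and 1591 and 1740 against 5268 and 4257 CPM in the wild-type ones. It passed as lower at low density in both genotypes, and its interaction of 0.17 ± 0.28 had a 95% interval of -0.46 to 0.81 (edgeR adjusted p = 0.758). Nr4a1, a nuclear receptor and CREB target, had 0.29 ± 0.35, with an interval of -0.49 to 1.07.

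In the histamine pathway 6 of 12 genes were abundant enough to test, with median gaps of -1.28 in deficient and -0.39 in wild-type cells and a median interaction of -0.26 (0.08 with total counts only and 0.05 without wild-type low-density library 4). With total counts only the median of all genes was 0.38. Hdc, which makes histamine, had 1220.4 and 2033 CPM in deficient low-density against 4706 and 6013 CPM in deficient high-density libraries, and 2465 and 3946 against 6679 and 5767 CPM in the wild-type ones, and its interaction was -0.76 ± 0.43 (edgeR adjusted p = 0.338). Slc18a2, a vesicular amine transporter, had -1.15 ± 0.37 (edgeR adjusted p = 0.133), and Hnmt, which methylates histamine, -0.63 ± 0.35. Aldh7a1 and Maoa, of the breakdown of amines, had 0.29 ± 0.59 and 0.56 ± 1.67. The other receptors, Hrh1, Hrh3 and Hrh4, had at most 8, 4 and 10 counts in a library and were not tested.

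Inflammatory genes showed a mixture. Immediate-early genes had a median interaction of 0.16, with 2 of 24 positive (8.33%, against 12.6% of all genes) and 0 negative at an unadjusted p of 0.05. Leaving out wild-type high-density library 2 turned the median to -0.12, and leaving out wild-type low-density library 4 gave 0.58. With 1 library left out 1 to 5 were positive and 0 to 2 negative, and with total counts only 5 were positive. Here the wild-type gap ran from -1.88 to -0.33 over library pairs, against -1.09 to -0.90 in deficient cells, and wild-type high-density library 2 was high in Fosb, with 34.4 and 21.1 CPM in deficient low-density against 40.1 and 22.5 CPM in deficient high-density libraries, and 10.7 and 24.6 against 214 and 23.4 CPM in the wild-type ones. Atf3, a stress-induced transcription factor, had 187 and 152 CPM in deficient low-density against 197 and 200.1 CPM in deficient high-density libraries, and 119 and 127 against 381 and 229.8 CPM in the wild-type ones, with an interaction of 1.08 ± 0.34, and Ptgs2, the inducible cyclooxygenase, had 1.07 ± 0.36. NF-kappaB targets had a median of -0.21 with TMM factors and 0.14 with total counts only, and the cytokine list had 0.21 and 0.55. Over all genes the medians were 0.04 and 0.38. Leaving out wild-type high-density library 4 gave the cytokine list -0.09, wild-type low-density library 2 gave it -0.03, and wild-type low-density library 4 gave NF-kappaB targets 0.01. Cxcl2, a neutrophil chemokine, had 0.21 ± 0.27. Ccl2, a chemokine for monocytes, had 129.9 and 119.7 CPM in deficient low-density against 39 and 42.6 CPM in deficient high-density libraries, and 74.8 and 85.3 against 78.6 and 74.2 CPM in the wild-type ones. In wild-type cells its gap was 0.07 ± 0.16, and in deficient cells 1.61 ± 0.17, an interaction of 1.55 ± 0.23 (edgeR adjusted p = 0.0906). Il6 had an interaction of 2.18 ± 0.63 (edgeR adjusted p = 0.11), from 6.21 and 10.04 CPM in deficient low-density against 1.87 and 3.13 CPM in deficient high-density libraries, and 4.26 and 7.59 against 5.42 and 11.2 CPM in the wild-type ones. Interferon-stimulated genes had a median of -0.42, with 1 of 30 negative and 0 positive; their sum was 5534 CPM in wild-type high-density library 2 and 2878 CPM in library 4, and leaving out library 2 gave a negative count of 17, leaving out deficient low-density library 2 gave 10, wild-type low-density library 2 gave 7, and each of the other 5 gave 0.

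The genes with the lowest interaction p were picked after their values were seen. Gpd1l, a relative of glycerol-3-phosphate dehydrogenase (ENSMUSG00000050627; GRCm38 chromosome 9 between 114899341 and 114933987, minus strand), had 19.7 and 17.7 CPM in deficient low-density against 2.86 and 3.19 CPM in deficient high-density libraries, and 9.28 and 9.44 against 8.07 and 7.38 CPM in the wild-type ones. The wild-type densities were 0.28 ± 0.19 apart and the deficient ones 2.63 ± 0.21, an interaction of 2.35 ± 0.28 (edgeR adjusted p = 0.0906; with the block 2.35, adjusted p = 0.0438). S100a4, a calcium-binding protein, had 47.1 and 52.7 CPM in deficient low-density against 9.4 and 9.76 CPM in deficient high-density libraries, and 45.4 and 35.7 against 25.2 and 31 CPM in the wild-type ones and an interaction of 1.85 ± 0.28. Scd1, a fatty acid desaturase, had 53.7 and 54.7 CPM in deficient low-density against 4.79 and 4.98 CPM in deficient high-density libraries, and 23.7 and 20.4 against 7.25 and 5.84 CPM in the wild-type ones and 1.72 ± 0.27, and the nuclease Snd1 had 1.97 ± 0.31. In the negative direction Lin28a, an RNA-binding protein that blocks let-7 processing, had 17.3 and 27 CPM in deficient low-density against 56.2 and 70.8 CPM in deficient high-density libraries, and 30.6 and 41.2 against 19.6 and 21.3 CPM in the wild-type ones, with an interaction of -2.33 ± 0.36 (edgeR adjusted p = 0.0906).

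The 28 genes that passed with the block were likewise chosen after their values were seen. Positive ones beside those above were Pld4, an endolysosomal nuclease (2.62), Ass1, argininosuccinate synthase (2.10), Ccdc50 (2.27), Ms4a6c (2.06), Tbc1d9 (2.45) and Tmem123 (1.71). Pld4 had 27.8 and 28.6 CPM in deficient low-density against 1.93 and 4.28 CPM in deficient high-density libraries, and 20.7 and 16.7 against 12.1 and 11.9 CPM in the wild-type ones. A set of 3 were genes of the collagen matrix, Col3a1, Col1a2 and Dcn, and their pattern differed. Col3a1 had 89.2 and 10.4 CPM in deficient low-density against 5.72 and 0.574 CPM in deficient high-density libraries, and 13.1 and 101 against 5.48 and 37.3 CPM in the wild-type ones. At both densities, deficient library 1 and wild-type library 4 were thus above the other library of their own group. Without the block the interaction of Col3a1 was 2.55 ± 2.24 (edgeR adjusted p = 0.554). The 5 mesothelial and stromal markers, of which Col3a1 is one, summed to 167 and 29.9 CPM in deficient low-density and 20.6 and 18.8 CPM in deficient high-density libraries, and 32.2 and 174 against 19.7 and 77.3 CPM in the wild-type ones, and their part was not tested. Negative ones were Dusp6, a phosphatase of ERK (-2.08), Id1, an inhibitor of basic helix-loop-helix factors (-2.10), Adora3, an adenosine receptor (-2.15), Sesn2, a stress-induced leucine sensor (-1.73), Rhou (-1.70), Gcnt1, a glycosyltransferase (-1.73), Acvrl1 (-2.48), Tgm1 (-2.09), Abca13 (-1.97), Kctd11 (-1.98), Ppp1r13b (-1.97) and Fam8a1 (-1.97). Adora3 had 6.12 and 9.72 CPM in deficient low-density against 26.7 and 29.9 CPM in deficient high-density libraries, and 13.7 and 19.5 against 13.4 and 13.6 CPM in the wild-type ones. Its deficient high-density libraries stood above the other 6. All 28 had block adjusted p-values between 0.0438 and 0.0476 (edgeR), 23 of them had an unadjusted p under 0.05 without the block, and 23 were called by DESeq2.

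**Figure D4:**
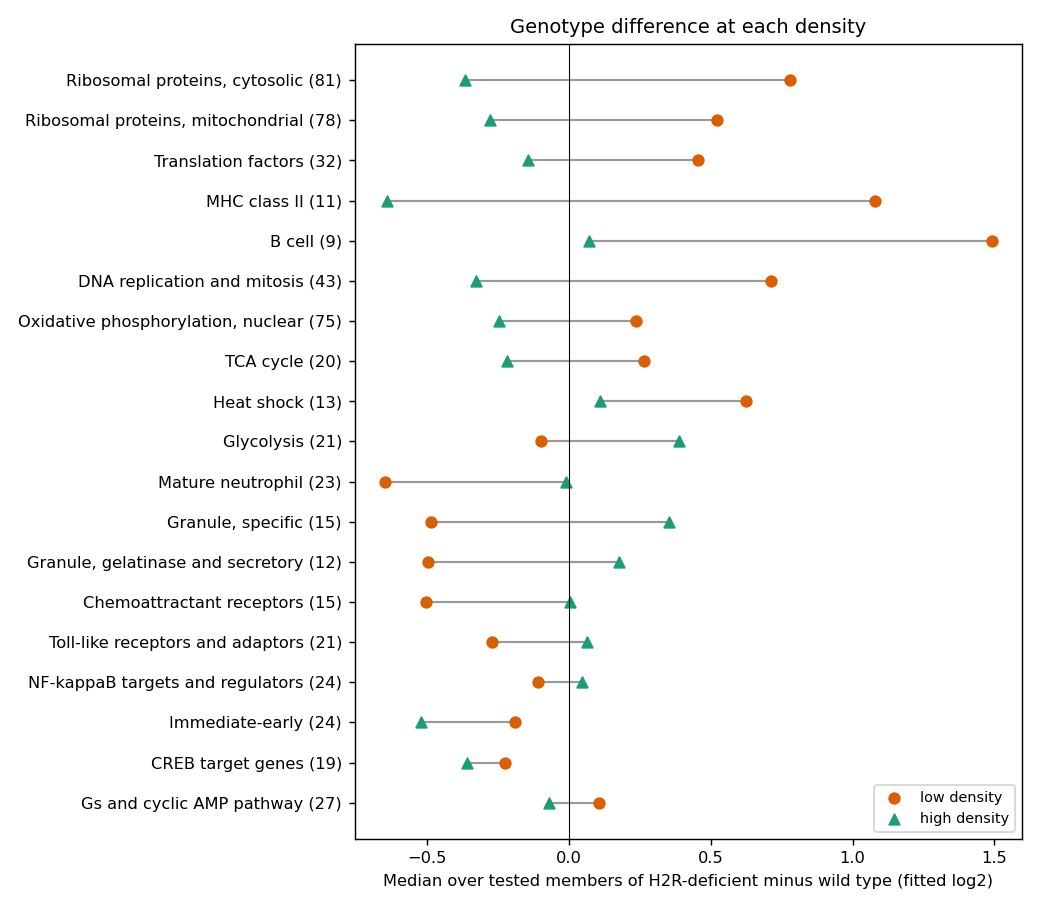
Genotype difference (H2R-deficient minus wild type, median over the tested members of each list, fitted log2) at low density (circles) and at high density (triangles); the line between them is as long as the difference of the 2 medians. Ribosomal, class II and replication lists lie above 0 at low density and below 0 at high density, B cell markers lie near 0 at high density, and specific granule genes lie below 0 at low and above 0 at high density. No test was run on the medians.

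The genotype difference of several gene groups had opposite signs at the 2 densities, while that of others lay near 0 at high density. At low density the median difference of ribosomal protein genes between deficient and wild-type cells was 0.78, and at high density it was -0.37. For class II genes the values were 1.08 and -0.64, and for replication genes 0.71 and -0.33. For B cell markers the difference was 1.49 at low and 0.07 at high density. Mature neutrophil genes differed by -0.65 at low and -0.01 at high density, and specific granule genes by -0.49 and 0.35. No test was run on these medians.

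Markers of other cells that a peritoneal preparation could hold did not share 1 pattern. Gamma-delta T cell markers summed to 60.5 and 65.3 CPM in deficient low-density and 2.86 and 3 CPM in deficient high-density libraries, and 80.4 and 92.9 against 2.47 and 3.84 CPM in the wild-type ones, a large gap in both genotypes, and 0 of 6 were positive and 0 negative at an unadjusted p of 0.05. Blk, a kinase, is on both this list and the B cell list. Trdc, the constant part of the delta chain, had gaps of 5.21 ± 0.47 in deficient and 6.88 ± 0.50 in wild-type cells. Macrophage markers had 3 of 7 positive (42.9%, against 12.6% of all genes) and 0 negative at an unadjusted p of 0.05. Their median gap was 1.08 in deficient and 0.17 in wild-type cells. In deficient cells 4 passed as higher and 2 as lower at low density (edgeR adjusted p under 0.05), against 30% and 23.9% of all genes. Their sum was nevertheless higher at high density in both genotypes, at 360.4 and 369 CPM in deficient low-density and 635 and 648 CPM in deficient high-density libraries, and 486 and 465 against 579 and 701 CPM in the wild-type ones. T cell markers had a median interaction of -1.65, which was -0.026 without deficient high-density library 2 and -2.49 without deficient high-density library 1, and Cd3e, a chain of the T cell receptor complex, had 1.86 and 2.79 CPM in deficient low-density against 0.993 and 2.81 CPM in deficient high-density libraries, and 3.12 and 4.11 against 0.648 and 0.177 CPM in the wild-type ones, with deficient high-density library 2 above library 1. NK and erythroid markers had no member at an unadjusted p of 0.05, and the erythroid sum was at most 1.49 CPM in every low-density library and 29.1 to 226.3 CPM in the high-density ones. The part of these cells in the interactions above was not tested.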

How the data were processed

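The authors deposited whole-number read counts for each gene, without normalization. Tools listed in the submitters' processing notes are STAR 2.5.2b, Subread 1.5.2 with featureCounts, Trimmomatic 0.36 and bcl2fastq 2.17.1.14, and the build listed is GRCm38. How strand and reads with several matches were handled is not stated in the labels or headers, so counts of overlapping genes, of ribosomal protein genes with pseudogenes and of class II paralogs are uncertain. Of 49315 rows, 48970 matched a symbol in GENCODE M21.

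Genes were filtered with filterByExpr by group (14909 kept), scaled by TMM and fitted with edgeR's robust quasi-likelihood model, 1 mean per group, with 4 residual degrees of freedom (edgeR 4.0.16, limma 3.58.1, DESeq2 1.42.0, R 4.3.3). The common biological coefficient of variation was 0.236. The interaction, both density gaps and both genotype differences are contrasts of that fit, with Benjamini-Hochberg adjustment over all genes and a call at 0.05; standard errors are the log2 value over the root of F. Relative to unscaled library totals, a count of 0 allows 0.124 to 0.151 CPM (a floor of 3 counts, counting error only). On the TMM scale of the printed levels this floor is lower in low-density and higher in high-density libraries. Paired libraries within groups differed by more than counting noise (chi-square per degree of freedom 33.7 to 53.5), so none was treated as a copy. The fits were also run on simulated counts with planted interactions, drawn without pairing of libraries, and the outcome is not reported here.

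Low- and high-density libraries with the same number deviated together (correlation 0.326 in deficient and 0.155 in wild-type libraries; each genotype gives 1 independent value), so the number was treated as pairing them. The labels do not say what it marks, and the count of calls with the block was already known. Deficient and wild-type numbers were not matched with each other, and the block fit had 2 residual degrees of freedom.

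The members and the 56 lists (39 of functions, 17 of cell types) were chosen with earlier results of these data known. Symbol patterns for ribosomal and respiratory genes were written, and paralogs removed, with values in view. The rule for named genes took the called genes with the largest interaction, which gave none, the 3 members of each described list with the lowest p, Hrh2 and the histamine list; other genes, including those called with the block, those with the lowest p, and list members used as examples, were chosen after their values were seen. Alternatives were DESeq2, limma-voom, other scalings and filters, no robust step, the block and leaving out each library. Promoters and their motifs come from RefSeq (GRCm38.p6), with a promoter for 10487 of 14908 tested symbols. Values of some list members are not reported here.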

Additional observations from a re-analysis of the deposited data

Results flagged for a closer look

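The 28 genes below are listed because the density gap differed between genotypes by the interaction test with the library number as a block (edgeR adjusted p of 0.0438 to 0.0476); without the block none passed. Positive interactions with the block were 2.67 for Col3a1, 2.62 for Pld4, 2.45 for Tbc1d9, 2.35 for Gpd1l, 2.33 for Col1a2, 2.32 for Ifi30, 2.27 for Ccdc50, 2.27 for Dcn, 2.10 for Ass1, 2.06 for Ms4a6c, 2.00 for H2-Eb1 and 1.71 for Tmem123. Negative ones were -1.70 for Rhou, -1.73 for Gcnt1, -1.73 for Sesn2, -1.75 for Ngp, -1.77 for Ltf, -1.79 for Cd177, -1.97 for Ppp1r13b, -1.97 for Fam8a1, -1.97 for Abca13, -1.98 for Kctd11, -2.08 for Dusp6, -2.09 for Tgm1, -2.10 for Id1, -2.15 for Adora3, -2.35 for Lin28a and -2.48 for Acvrl1. With total counts only, 15 of the 28 passed without the block. For 23 of them the 4 deficient gaps did not overlap the 4 wild-type ones (22.7% of all genes were apart upward and 16.7% downward). The other 5, Col3a1, Col1a2, Dcn, Ngp and Abca13, had an unadjusted edgeR p above 0.05 without the block.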

How the results depend on the processing

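The count of genes with an interaction was 0 with limma-voom, RLE and upper quartile scaling, a stricter filter (at least 5 CPM in at least 2 libraries) and without the robust step, as without these changes. It was 990 with DESeq2, 635 with total counts only, 1210 without the filter and 28 with the replicate block, and 0 to 3 when 1 library was left out (3 without wild-type high-density replicate 2). Of the 1210 genes, 1203 had passed the filter and 1130 had an unadjusted p under 0.05 with it; without the filter the prior degrees of freedom of the dispersion were infinite for the median gene, against 5.30 with it. The density count in wild-type libraries was 4946 with total counts only, 3361 without the filter and 123 to 1724 with 1 library left out, against 1888; that in deficient libraries was 5394 to 8341 with 1 library left out, against 8044.

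Of 111 named genes that were checked, 107 kept the sign of their interaction under each of the 17 alternatives that tested them. The stricter filter tested 106. With 1 library left out, the interaction of Hrh2 ranged from -0.83 to 0.71, that of Aldh7a1 from -0.24 to 0.69, that of Maoa from -0.72 to 2.93 and that of Nr4a1 from -0.077 to 0.59, so each reversed in at least 1 of these; Hrh2 also reversed with the replicate block (-0.0067). The cause was not tested. The replicate block made the 28 calls above and changed no other interaction call of a named gene. Of 42 list medians, 26 moved by more than their spread over library pairs with total counts only, 13 without wild-type high-density replicate 4, 8 without wild-type high-density replicate 2, 8 without deficient high-density replicate 1, 5 with the stricter filter and 2 to 6 without any 1 of the other libraries. With total counts only the median of all genes itself moved from 0.04 to 0.38, and the list medians were not taken relative to it. Groups of 2 are too small for an exact permutation test to reach 0.05, and small interactions were not detectable at the median standard error of 0.44.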

Other observations

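Median interactions of several functions not described above lay near 0, while single members differed. The 21 genes of MHC class I and peptide loading had a median interaction of 0.13 (-0.20 to 0.52 with 1 library left out, the lowest without wild-type high-density library 2), against 1.82 for class II, with 4 positive (19%, against 12.6% of all genes) and 0 negative at an unadjusted edgeR p of 0.05. The positive count was 1 without deficient low-density library 1 or wild-type low-density library 4 and 2 without deficient low-density library 2 or deficient high-density library 2. Lysosome and proton pump genes, 37 in number, had a median of -0.26 with TMM factors and 0.08 with total counts only. Autophagy genes had -0.24 and 0.10, and all genes 0.04 and 0.38. Single genes here were chosen after their values were seen. Among BCL2 family genes Bcl2l2, which protects cells from death, had 7.4 and 7.11 CPM in deficient low-density against 1.28 and 1.02 CPM in deficient high-density libraries, and 6.24 and 5.87 against 2.24 and 4.43 CPM in the wild-type ones, an interaction of 1.78 ± 0.48 (edgeR adjusted p = 0.098), and Bcl2l11, which promotes death, had -0.82 ± 0.28 (edgeR adjusted p = 0.153). Irf8, a transcription factor of monocytes, dendritic cells and B cells, had 36.6 and 52.8 CPM in deficient low-density against 4.32 and 7.08 CPM in deficient high-density libraries, and 29.7 and 16.1 against 11.8 and 11.4 CPM in the wild-type ones, with an interaction of 1.99 ± 0.48 (edgeR adjusted p = 0.0931). Cebpb, a transcription factor of granulocytes in emergency, had -0.83 ± 0.28 (edgeR adjusted p = 0.143). Arg1, an arginase, had 282 and 362 CPM in deficient low-density against 106 and 175 CPM in deficient high-density libraries, and 308 and 239.6 against 235 and 391 CPM in the wild-type ones and an interaction of 1.39 ± 0.44 (edgeR adjusted p = 0.13). Mitochondrially encoded genes had a median interaction of 1.06, with 0 of 10 positive and 0 negative. With total counts only 7 were positive, and with 1 library left out 0 to 7 were, the highest count without deficient high-density library 1, and the median ran from 0.51 to 1.51. The mitochondrial share of counts was 0.59% in both deficient low-density libraries, 0.311% and 0.159% in deficient high-density, 0.387% and 0.284% in wild-type low-density and 0.341% and 0.246% in wild-type high-density libraries.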
